A study of Homo sapiens with 6 samples.

Results

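The proteasome genes described here are the protein-coding rows of the deposited table whose symbol begins with PSMA, PSMB, PSMC, PSMD, PSME, PSMF or PSMG followed by a number, without PSMB8 and PSMB9, catalytic subunits of the immunoproteasome. This gave 46 of 25349 genes. The rule used names only and no measured value, though it was chosen with earlier results of these data known. Of the 46 genes, 15 encode subunits of the core particle and 17 encode subunits of the regulatory particle. A further 7 encode assembly chaperones and 5 encode alternative caps or the inhibitor PI31. The remaining 2, PSMC3IP and PSME3IP1, encode partner proteins that carry a subunit's name and are no subunits themselves.

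The counts come from SCC-9 cells, an established line of human tongue squamous cell carcinoma. The cells of all 6 libraries received siRNA at 10 nM on day 0 and again on day 2, and the RNA was taken on day 4. In the siE7 group (titled siKi) the siRNA was directed against exon 7 of MKI67, the gene of the proliferation marker Ki67, and in the siNC group (titled NS) it was a nonspecific siRNA. Each group held 3 libraries. Which of the exon 7 siRNAs was used is not given in the sources used here, so an effect of 1 siRNA sequence and an effect of the knockdown cannot be told apart. Nothing states that the libraries came from separate cultures, so the p-values measure the spread between these libraries, which may be technical. In bulk RNA, fewer cells with a transcript and less transcript per cell cannot be told apart either.

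The proteasome degrades proteins that carry ubiquitin chains. Its core particle is a barrel in which the beta subunits PSMB5, PSMB6 and PSMB7 cut proteins and the alpha subunits form the gate. The regulatory particle sits on the end of the barrel, where its lid and ubiquitin receptors hold and deubiquitinate the substrate and its base, a ring of ATPases, unfolds it and threads it into the core. The subunit genes are known to be induced together by the transcription factor NFE2L1 when proteasome activity falls, through antioxidant response elements in their promoters, and tumor cells are known to lean on this system.

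The promoter stretches that hold such an element are shown because NFE2L1 is known to act through it on the subunit genes. The search took TGACNNNGC on both strands, from 250 bases before to 50 bases after each start in the RefSeq promoter table (GRCh38.p14), where 40 of the 46 genes were found with 50 promoters. The element was in 28% of these promoters, against 13.3% of all 35097 promoters of the same length. It was found for 14 proteasome genes, and the 7 that encode subunits of the core and regulatory particles are printed below, 5′ to 3′ on the strand of the gene, with the matched letters in capitals (a match on the other strand is read as its reverse complement).
PSMA4 (alpha ring, chr15:78540650-78540679, plus strand): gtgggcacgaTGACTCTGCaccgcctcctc
PSMB3 (beta ring, chr17:38752627-38752656, plus strand): gcctccgtttTGACTTTGCaaccaaactac
PSMC4 (base ATPase, chr19:39971182-39971211, plus strand): acagaggccgGCTTGGTCActatggaggag
PSMC5 (base ATPase, chr17:63827654-63827683, plus strand): gaccggatctGCTGTGTCAgcgccgccctc
PSMD1 (base, chr2:231056887-231056916, plus strand): ggcggcctgaggaggcgacTGACTGAGCag
PSMD3 (lid, chr17:39980760-39980789, plus strand): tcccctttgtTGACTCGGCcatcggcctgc
PSMD12 (lid, chr17:67366723-67366752, minus strand): agacaaaaccTGACGCTGCaggctggagtg

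A second motif in these promoters is the core bound by ETS family factors, CCGGAAG, which was in 34% of the 50 promoters against 10.3% of all. Of the genes that passed the test of siE7 against siNC, PSMD8 (lower), PSMG4 (higher) and the partner gene PSMC3IP (higher) held it. The stretches of the subunit and the chaperone are printed to set the same motif beside opposite directions, and both read its reverse complement. PSMD2, the gene with the largest difference, held no match to the motifs searched.
PSMD8 (lid, chr19:38374543-38374572, plus strand): gcaaaagccaaCTTCCGGtcaccatcttga
PSMG4 (core assembly, chr6:3258892-3258921, plus strand): tcacccccgccCTTCCGGggccgaaagcga

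Depth was 25608192 to 29550264 counts on genes per library. MKI67 was at 1072, 1029 and 1077 CPM (counts scaled to the size of each library with TMM factors) in the siNC libraries and at 112, 124 and 108 CPM with siE7, a log2 fold change of −3.21 (p = 0.1 by a two-sided exact permutation test, whose lower limit with 3 against 3 libraries is 0.1). The 6 squamous keratinocyte markers summed to 16409 to 17204 CPM with siNC and 16919 to 22391 CPM with siE7. Within this sum the markers moved both ways. KRT14 and KRT17 were higher and KRT5 and TP63 lower in every siE7 library, while KRT6A and DSG3 overlapped. The 6 fibroblast markers summed to at most 24.1 CPM, the 5 leukocyte markers to at most 3.52 CPM with 4 of them at 0 in every library, and the 3 endothelial markers to at most 0.492 CPM. One library stood apart. The counts of siE7 replicate 1 differed from those of siE7 replicates 2 and 3 by a chi-square of 61.1 and 72.7 per degree of freedom, against 5.54 to 6.22 for every other pair within a group. For the genes described with their levels, the fold change without this library is therefore given where its removal changes the call or moves the value by more than 1.5 times.

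Among 14661 genes tested with edgeR's quasi-likelihood test, 45 of the 46 proteasome genes were tested. PSMA2, with 4 to 20 counts per library, did not pass the filter on low counts. At a Benjamini-Hochberg adjusted p under 0.05, 3 proteasome genes were higher with siE7 (PSMD10, PSMG4 and PSMC3IP), where 18% of all tested genes were. Another 4 were lower (PSMD2, PSMD3, PSMD8 and PSMB10), where 16% of all tested genes were. The other 38 did not pass. Without the partner genes PSMC3IP and PSME3IP1, 2 of 43 tested genes were higher and 4 were lower. The split of all 46 genes depends on the scaling of the libraries. It was 2 higher and 7 lower under RLE scaling or DESeq2 and 8 higher and 2 lower without composition scaling. Leaving out composition scaling moves the median of all tested genes from 0.08 to 0.25. The share of all tested genes called was not counted in these fits. Only PSMD2 also passed a log2 fold change of 1 and was thus a differentially expressed gene (DEG) by the thresholds of the study's methods, which 12.2% of all tested genes met. In 6 proteasome genes every siE7 library was above every siNC library and in 11 every siE7 library was below, against 24.9% and 22.7% of all tested genes. The median log2 fold change was −0.05 over the 45 genes and 0.08 over all tested genes.

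Without siE7 replicate 1 many more genes passed. Then 14 of the 46 proteasome genes were higher with siE7 and 20 were lower, against 28.9% and 29.5% of 15011 genes tested. After removal of the trend of each library with the GC content of the transcripts, 8 were higher and 16 were lower, against 24.5% and 26.1% of all tested genes. The plot of fold changes shows how the genes split with and without this library.

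**Figure D1:**
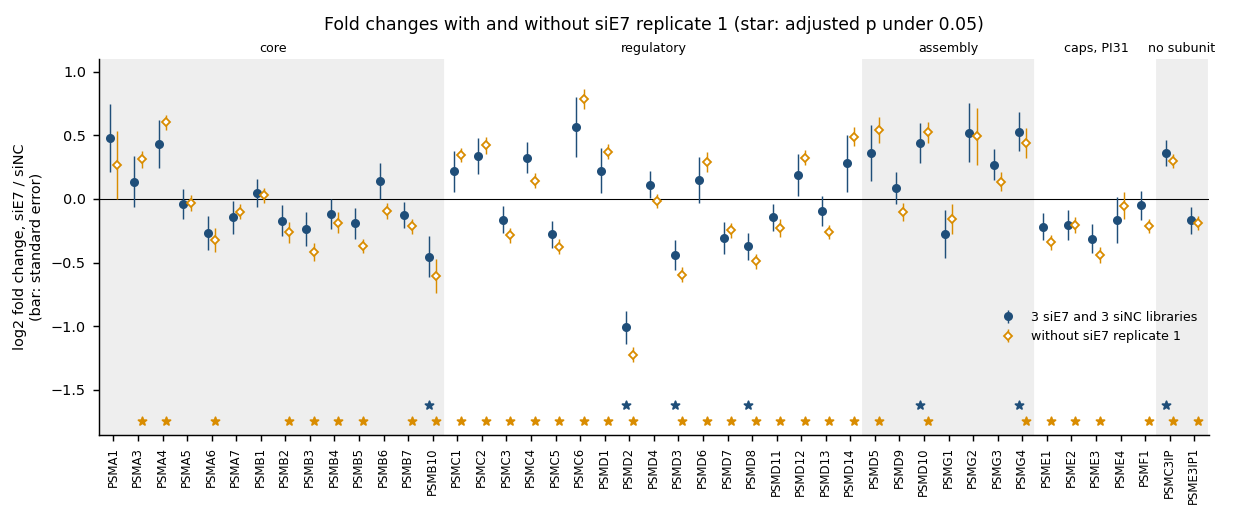
Log2 fold change of siE7 over siNC (vertical axis) for the 45 tested proteasome genes (horizontal axis, grouped by part of the proteasome), with all 6 libraries (filled circles) and without siE7 replicate 1 (open diamonds). Bars are standard errors and stars mark adjusted p under 0.05 (edgeR); PSMD2 lies lowest in both, at −1.01 and −1.22.

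The regulatory particle held the largest difference. PSMD2, a scaffold subunit of the base that docks ubiquitin receptors, is located at chr3:184299198-184309050 (plus strand, GRCh38) and carries the identifier ENSG00000175166.17. It was measured at 2916, 2887 and 2788 CPM in the siNC libraries. With siE7 it was at 1711, 1314 and 1247 CPM. Every siE7 library was far below every siNC library, and replicate 1 was the least low of the siE7 libraries. The log2 fold change was −1.01 ± 0.13 (SE, n = 3 per group; edgeR adjusted p = 0.000193), a ratio of 0.497. It was −1.22 without siE7 replicate 1, and PSMD2 stayed lower at adjusted p under 0.05 in all 16 alternatives, between −1.22 and −0.85. The DEG call is less firm than the direction, since the estimate lies on the threshold of 1 and came out closer to 0 in 6 of the 16 alternatives.

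PSMD2 was also the most abundant proteasome transcript per length. It reached 983 CPM per kb of transcript in siNC, followed by PSME1 with 578, PSMC3 with 473, PSMA7 with 462 and PSMD3 with 443 CPM per kb. In siE7 PSMD2 was at 489 CPM per kb, beside 497 for PSME1. Its share of the summed CPM of the 17 regulatory particle genes with PSM names was 40.0% to 42.2% in the siNC libraries. In the siE7 libraries it was 24.9% to 31.1%. The summed CPM of the 17 regulatory particle genes was 6916, 7159 and 6973 with siNC and 5502, 4951 and 4999 with siE7. Without PSMD2 the sums were 4000, 4272 and 4185 with siNC against 3791, 3636 and 3752 with siE7. With TMM scaling the groups still did not overlap but lay much closer. The 15 core particle genes summed to 1450, 1502 and 1430 CPM with siNC and 1321, 1415 and 1513 CPM with siE7. These core ranges overlap. The core sums leave out the rows of readthrough genes that share exons with PSMA1, PSMA2, PSMA6 and PSMB10, described below. For PSMA6 that row held 5835 to 7951 counts per library, beside 796 to 943 for PSMA6 itself. The sums rest on TMM factors of 0.936 to 0.954 with siNC and 1 to 1.1 with siE7. They were not computed under other scalings. Without composition scaling, 12 of 17 regulatory particle genes and 9 of 14 core particle genes had an estimate above 0, against 9 and 5 with TMM.

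The lid is the part of the regulatory particle that removes ubiquitin chains. Of its 8 subunit genes with PSM names 2 fell and none rose, against 16% and 18% of all tested genes. PSMD3 (chr17:39980807-39997959, plus strand), a structural lid subunit, was at 864, 976 and 1015 CPM with siNC and at 792, 662 and 652 CPM with siE7. The groups did not overlap. The log2 fold change was −0.44 ± 0.12 (edgeR adjusted p = 0.0144) and −0.60 without siE7 replicate 1. PSMD8 (chr19:38374563-38383850, plus strand), another structural lid subunit, was at 469, 500 and 468 CPM with siNC and at 399, 340 and 371 CPM with siE7, again without overlap. Its log2 fold change was −0.37 ± 0.11 (edgeR adjusted p = 0.0191) and −0.49 without siE7 replicate 1. The call was lost for PSMD3 without siE7 replicate 2, siNC replicate 2 or siNC replicate 3 (edgeR adjusted p = 0.0609 to 0.0840). For PSMD8 it was lost without siE7 replicate 2 or any siNC library, and without composition scaling (0.0671 to 0.0984).

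PSMD14, the deubiquitinase of the lid, had the highest estimate of the lid genes and went 2 ways within the siE7 group. It was at 38.2, 39.0 and 35.2 CPM with siNC and at 26.7, 53.3 and 56.2 CPM with siE7. Replicate 1 was below every siNC library and replicates 2 and 3 were above them. The log2 fold change of 0.28 ± 0.23 did not pass the test (edgeR adjusted p = 0.366), and without siE7 replicate 1 it was 0.49 (adjusted p = 5.43e-07). PSMD7 did not overlap between groups, with 236 to 257 CPM in siNC and 163 to 215 CPM in siE7, but at −0.30 it missed the threshold (adjusted p = 0.0838), which it passed without siE7 replicate 1 (−0.25, 0.000264).

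None of the 6 ATPase genes of the base passed the test, and their estimates pointed both ways. PSMC6 was at 30.1, 27.3 and 25.8 CPM with siNC and at 23.4, 49.6 and 49.98 CPM with siE7. This is the split already seen for PSMD14, with replicate 1 lowest of all 6 libraries. Its log2 fold change, the highest of all proteasome genes, was 0.56 ± 0.24 (edgeR adjusted p = 0.0875) with all libraries and 0.78 (8.59e-11) without siE7 replicate 1. PSMC5, the lowest of the ATPase genes, was at 419, 478 and 450 CPM with siNC and at 388, 363 and 359 CPM with siE7. The groups were apart in every library, and the log2 fold change of −0.28 ± 0.10 missed the threshold (edgeR adjusted p = 0.0596), which it passed without siE7 replicate 1 (−0.37, 8.30e-07). PSMC4 was apart in the other direction, with 93.4 to 99.2 CPM in siNC and 109 to 140 CPM in siE7 (0.32 ± 0.12, adjusted p = 0.0605), and was at 0.14 (0.0318) without siE7 replicate 1. Both genes carry the antioxidant response element printed above. Without siE7 replicate 1, 4 of the 6 ATPase genes were higher (PSMC1, PSMC2, PSMC4 and PSMC6) and 2 were lower (PSMC3 and PSMC5), where 28.9% and 29.5% of all tested genes were.

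The other base subunits did not pass the test. PSMD1, its companion scaffold subunit, was at 80.3, 86.1 and 83.0 CPM with siNC and at 66.5, 112 and 112 CPM with siE7, once more with replicate 1 below and replicates 2 and 3 above the siNC libraries. Its log2 fold change was 0.22 ± 0.18 (edgeR adjusted p = 0.358) and 0.37 (1.19e-06) without siE7 replicate 1. The ubiquitin receptor PSMD4 was at 391.6, 404 and 398 CPM with siNC and at 471, 398 and 422 CPM with siE7, which overlap, and its log2 fold change was 0.11 ± 0.11 (adjusted p = 0.440), or −0.018 without siE7 replicate 1. Over the 17 regulatory particle genes the median log2 fold change was 0.11, with 9 estimates above and 8 below 0. This median had no stable sign, since it was −0.02 without siE7 replicate 1 and −0.05 without siE7 replicate 3.

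**Figure D2:**
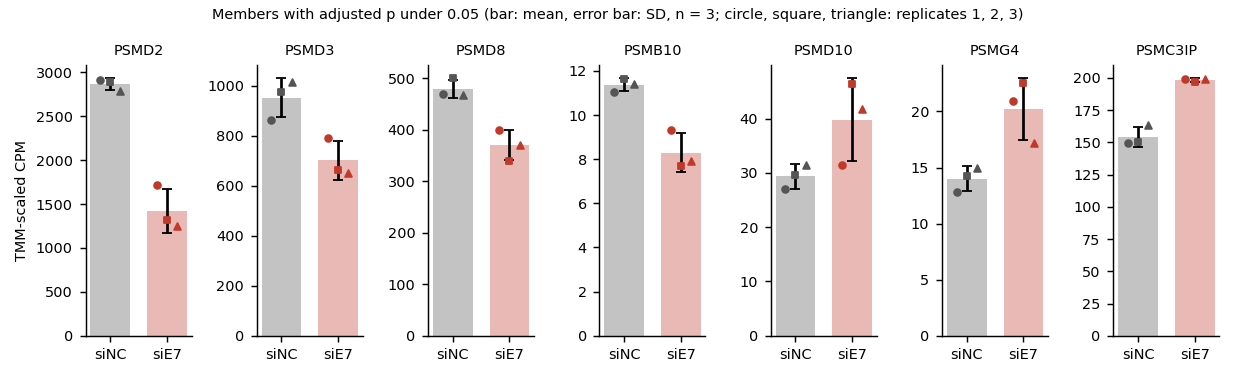
TMM-scaled CPM (vertical axes, each starting at 0) in the siNC and siE7 libraries for the 7 proteasome genes with an adjusted p under 0.05. Points are libraries, bars are means and error bars SD (n = 3); PSMD2, PSMD3, PSMD8 and PSMB10 are lower and PSMD10, PSMG4 and PSMC3IP higher with siE7, without overlap, though siE7 replicate 1 of PSMD10 (31.41 CPM) lies just above siNC replicate 3 (31.39 CPM).

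In the core particle, the 3 constitutive catalytic subunits did not pass the test. PSMB5, the chymotrypsin-like subunit and main target of bortezomib, was at 146, 160 and 154 CPM with siNC and at 155, 121 and 126 CPM with siE7. Replicate 1 of siE7 lay among the siNC libraries and replicates 2 and 3 lay below them. The log2 fold change was −0.19 ± 0.12 (edgeR adjusted p = 0.246) with all libraries and −0.37 (8.97e-07) without siE7 replicate 1. PSMB6, the caspase-like subunit, was at 100.1, 91.4 and 88.0 CPM with siNC and at 126, 95.9 and 86.2 CPM with siE7. Its log2 fold change of 0.14 ± 0.14 (adjusted p = 0.477) turned to −0.09 without siE7 replicate 1. PSMB7, the trypsin-like subunit, was at 198, 193 and 177 CPM with siNC and at 180, 168 and 172 CPM with siE7, with overlap and a log2 fold change of −0.13 ± 0.10 (adjusted p = 0.375), which was −0.22 (0.00157) without siE7 replicate 1.

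Of the core particle genes only PSMB10 passed. PSMB10, the inducible catalytic subunit that takes the place of PSMB7 in the immunoproteasome, lies at chr16:67934506-67936864 (minus strand). It was at 11.1, 11.6 and 11.4 CPM with siNC and at 9.31, 7.68 and 7.92 CPM with siE7, without overlap. The log2 fold change was −0.45 ± 0.16 (edgeR adjusted p = 0.0447) and −0.60 without siE7 replicate 1. The call was lost in 10 of the 16 alternatives (highest adjusted p = 0.145). A readthrough gene covers 56.1% of the canonical PSMB10 transcript on the same strand and holds 171 to 294 counts in the table, beside 212 to 301 counts for PSMB10. That row had a log2 fold change of 0.09 (adjusted p = 0.745), and how reads on both genes were counted is not given in the sources used here.

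The other beta subunits, PSMB1 to PSMB4, lay between −0.24 (PSMB3) and 0.05 (PSMB1) on the log2 scale. PSMB3 was at 67.0, 78.3 and 68.7 CPM with siNC and at 70.1, 52.5 and 58.8 CPM with siE7, and only replicates 2 and 3 of siE7 were below the siNC libraries. Its log2 fold change was −0.42 (edgeR adjusted p = 8.03e-06) without siE7 replicate 1. PSMB1 was at 98.9 to 109 CPM with siNC and at 101 to 112 CPM with siE7, which overlap, and its estimate was 0.031 without siE7 replicate 1. Leaving out siE7 replicate 1, 5 of the 7 constitutive beta subunit genes were lower (edgeR adjusted p under 0.05) and none was higher, where 29.5% and 28.9% of all tested genes were.

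In the alpha ring, PSMA3 and PSMA4, named here after their values were seen, were split between the siE7 libraries. PSMA3 was at 58.1 to 65.0 CPM with siNC and at 43.4, 73.4 and 83.5 CPM with siE7, a log2 fold change of 0.14 ± 0.20 (edgeR adjusted p = 0.620) that became 0.31 (0.000198) without siE7 replicate 1. PSMA4 was at 120, 127 and 125 CPM with siNC and at 110, 188 and 204 CPM with siE7, a log2 fold change of 0.43 ± 0.19 (edgeR adjusted p = 0.0998) that became 0.60 (1.06e-11) without siE7 replicate 1. The highest alpha estimate, 0.48 ± 0.26 for PSMA1 (adjusted p = 0.187), rests on 1.44 to 2.31 CPM with siNC and 2.35 to 3.31 CPM with siE7, and was 0.27 without siE7 replicate 1. The lowest, −0.27 ± 0.13 for PSMA6 (adjusted p = 0.143), came from 38.2, 35.5 and 30.1 CPM with siNC and 28.6, 30.8 and 26.9 CPM with siE7, and was −0.32 (0.00331) without siE7 replicate 1. Levels of PSMA1, PSMA2 and PSMA6 are uncertain, because readthrough genes cover 67.0%, 100% and 81.4% of their canonical transcripts. The readthrough rows of these 3 genes hold 334 to 445, 732 to 1236 and 5835 to 7951 counts per library. That is more than the rows of the subunits themselves, and their log2 fold changes of −0.21, 0.11 and −0.01 did not pass the test. Over the 14 tested core particle genes the median log2 fold change was −0.12, with 5 estimates above and 9 below 0, and without composition scaling it was 0.043, below the median of all genes of 0.25 in that fit.

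**Figure D3:**
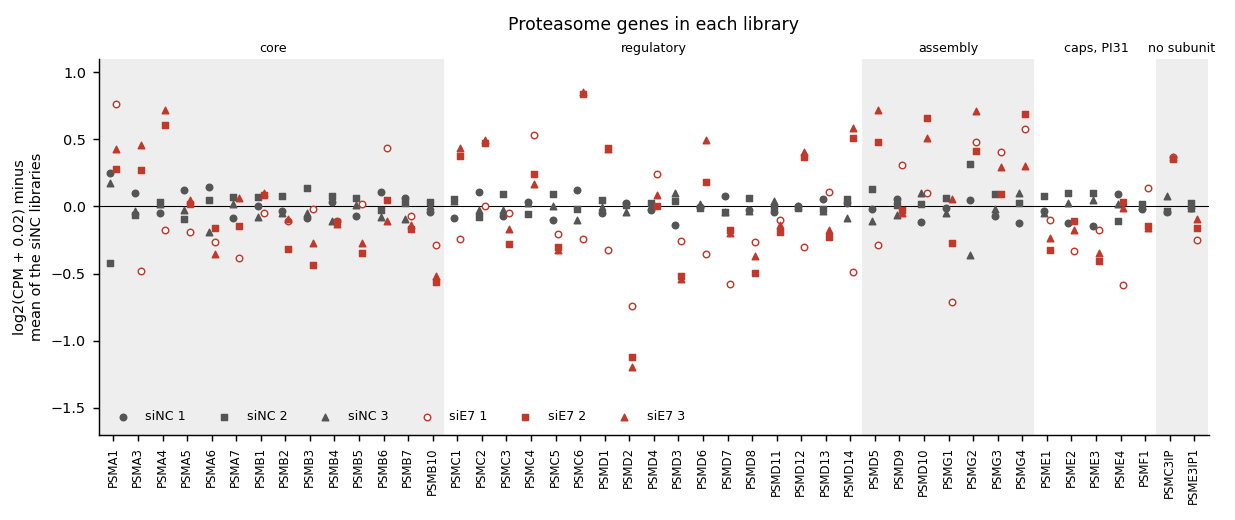
Log2(CPM + 0.02) of each tested proteasome gene in every library, minus the mean of the siNC libraries (vertical axis). Grey symbols are siNC and red symbols siE7 replicates 1 (open circles), 2 (squares) and 3 (triangles); for PSMA3, PSMA4, PSMC6, PSMD14 and others the open circle lies below and the filled red symbols above the grey ones.

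The assembly chaperones build the particles and are absent from the finished proteasome. The 7 with PSM names had a median log2 fold change of 0.36, with 6 of 7 estimates above 0 under each scaling tried. Of these 7 genes 2 rose and none fell, against the 18% and 16% of all tested genes that did. The assembly factors PAAF1 and POMP, outside the symbol rule, were at −1.04 and 0.09 (edgeR adjusted p = 0.000258 and 0.656). PSMG4 (chr6:3231403-3303373, plus strand), a chaperone of the alpha ring, was at 12.8, 14.2 and 14.996 CPM with siNC and at 20.9, 22.5 and 17.2 CPM with siE7. Its groups did not overlap and its log2 fold change was 0.53 ± 0.15 (edgeR adjusted p = 0.0205). PSMD10, also known as gankyrin, a chaperone of the base that is also known as an oncoprotein in liver cancer, lies at chrX:108084207-108091549 (minus strand). It was at 27.0, 29.7 and 31.4 CPM with siNC and at 31.4, 46.3 and 41.7 CPM with siE7, a log2 fold change of 0.44 ± 0.15 (edgeR adjusted p = 0.0460). Without siE7 replicate 1 the values were 0.44 for PSMG4 and 0.52 for PSMD10. The call of PSMG4 was lost in 4 of the 16 alternatives (adjusted p up to 0.107) and that of PSMD10 in 7 (up to 0.184).

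The remaining chaperones with PSM names did not pass. PSMG1, which pairs with PSMG2, had the lowest estimate, with 15.2, 15.9 and 14.7 CPM for siNC and 9.31, 12.6 and 15.9 CPM for siE7 (−0.28 ± 0.19, edgeR adjusted p = 0.286, and −0.16 without siE7 replicate 1). PSMD9 was at 51.8 to 56.3 CPM with siNC and 52.2 to 67.2 CPM with siE7 (0.09 ± 0.13, adjusted p = 0.630, and −0.10 without siE7 replicate 1). PSMG2 was 1 of the lowest proteasome genes, at 2.20 to 3.52 CPM in siNC and 3.77 to 4.64 CPM in siE7, without overlap (0.52 ± 0.23, adjusted p = 0.104).

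All 5 genes of the alternative caps and of the inhibitor had estimates below 0, with a median of −0.20 (without composition scaling 3 of 5, with a median of −0.032), and none passed the test. PSME3, the nuclear cap that opens the core without ubiquitin or ATP, came closest. It was at 366, 432 and 418 CPM with siNC and at 357, 305 and 317 CPM with siE7. The groups did not overlap, by a narrow gap at siE7 replicate 1, and the log2 fold change was −0.31 ± 0.11 (edgeR adjusted p = 0.0540), which became −0.44 (2.04e-07) without siE7 replicate 1. The interferon-inducible caps PSME1 and PSME2 had log2 fold changes of −0.22 and −0.20 (−0.34 and −0.20 without siE7 replicate 1). PSMF1, the gene of PI31, was at 179, 183 and 182 CPM with siNC and at 199, 164 and 162 CPM with siE7, with replicate 1 above and replicates 2 and 3 below every siNC library (−0.05 ± 0.11, adjusted p = 0.755). In the fit without siE7 replicate 1 it was at −0.21 (edgeR adjusted p = 0.000965). With that library left out, 4 of these 5 genes were lower (edgeR adjusted p under 0.05), where 29.5% of all tested genes were, and PSME4 did not pass.

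Of the partner proteins, PSMC3IP (chr17:42572310-42577831, minus strand), which acts in homologous recombination in meiosis, was at 149, 150 and 163 CPM with siNC and at 199, 197 and 199 CPM with siE7. The siE7 libraries lay tightly together, replicate 1 included, and the log2 fold change was 0.36 ± 0.10 (edgeR adjusted p = 0.0181). The call was lost in 4 of the 16 alternatives (adjusted p up to 0.107), each of them with 1 library left out. Exons of MLX on the other strand cover 57.2% of its canonical transcript. The library kit kept the strand, but its use in counting is not given in the sources used here. The same holds for PSMC1, PSMD7 and PSMC5, where genes on the other strand cover 83.2%, 51.6% and 13.7%. PSME3IP1 was at 179 to 184 CPM with siNC and at 152 to 169 CPM with siE7 (−0.17, adjusted p = 0.232), and at −0.19 it passed without siE7 replicate 1 (0.00374).

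The split between siE7 libraries was common to many proteasome genes. For 9 of them siE7 replicate 1 lay below and siE7 replicates 2 and 3 lay above every siNC library. These were PSMA3, PSMA4, PSMC1, PSMC6, PSMD1, PSMD5, PSMD6, PSMD12 and PSMD14. The opposite pattern was found for PSMD13 and PSMF1. The share of all tested genes with either pattern was not counted, so these counts do not set the proteasome genes apart. The difference between siE7 replicate 1 and the mean of siE7 replicates 2 and 3 moved with the GC content of the canonical transcript (Pearson r = 0.72, Spearman rho = 0.71 across the 45 tested proteasome genes; genes share these libraries and are not independent replicates). Across 14645 tested genes with a GC value r was 0.66 and rho 0.73, so the relation was not limited to the proteasome genes.

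Of the 16 tested proteasome genes with a GC content under 45%, siE7 replicate 1 was below both other siE7 libraries for 12, with a median log2 difference of −0.60. Of the 29 genes at or above 45% it was above both for 21, with a median of 0.18. How often siE7 replicate 1 lay outside both over all tested genes was not counted. The median differences of all tested genes rose from −0.88 (30% to 35% GC) to −0.44 (40% to 45%). Above that they rose from −0.08 (45% to 50%) to 0.42 (65% to 70%). The tested genes with the lowest GC content were PSMC6 (36.4%, a difference of −1.09), PSMD12 (37.5%, −0.69) and PSMA5 (37.9%, −0.23). Those with the highest were PSMB10 (61.7%, 0.26), PSMG3 (59.4%, 0.21) and PSMD3 (58.5%, 0.27). PSMD2, at 52.9%, had a difference of 0.42. The fold changes without siE7 replicate 1 moved with GC content as well (r = −0.62 and rho = −0.61 across the 45 genes). Without that library, 9 of the 16 genes under 45% GC were higher and 2 lower, against 41.9% and 16.4% of all 5281 genes of that class. Of the 29 at or above 45%, 5 were higher and 18 lower, against 21.9% and 36.6% of 9712 genes. The part of GC content in these fold changes was not tested beyond the removal of its trend, after which PSMD2 was at −1.03, PSMD3 at −0.42, PSMD8 at −0.34, PSMB10 at −0.46, PSMG4 at 0.52, PSMD10 at 0.31 and PSMC3IP at 0.32. All 7 passed the test in that fit.

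**Figure D4:**
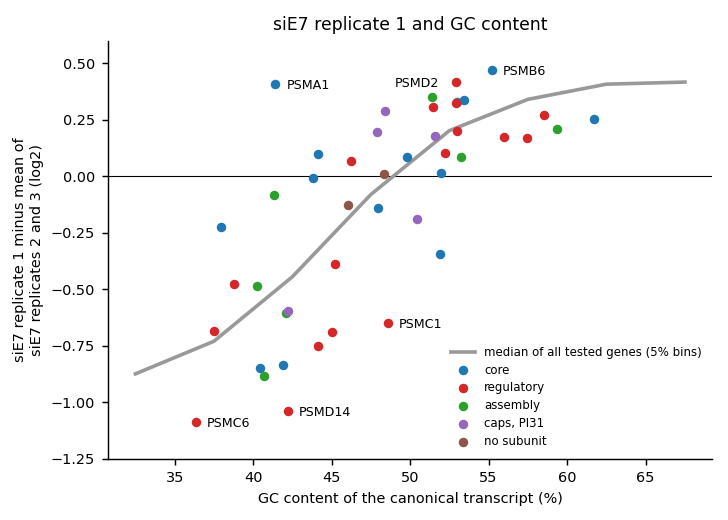
Difference between siE7 replicate 1 and the mean of siE7 replicates 2 and 3 (log2 CPM, vertical axis) against the GC content of the canonical transcript (percent, horizontal axis) for the 45 tested proteasome genes, coloured by part of the proteasome. The grey line gives the median of all tested genes in bins of GC content, from −0.88 in the lowest to 0.42 in the highest, and the proteasome genes lie between −1.09 (PSMC6) and 0.47 (PSMB6).

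Fold changes of genes with and without each promoter motif are given as a description, and their difference was not tested. Of the 14 genes with an antioxidant response element core, 7 had an estimate above and 7 below 0, with a median log2 fold change of −0.04, against −0.09 for the 25 tested genes whose promoters lacked it. Among the subunits whose elements are printed above, PSMA4 was at 0.43, PSMB3 at −0.24, PSMC4 at 0.32, PSMC5 at −0.28, PSMD1 at 0.22, PSMD3 at −0.44 and PSMD12 at 0.19, and only PSMD3 passed the test. For the ETS core, 9 of 16 genes had an estimate above 0 (median 0.12, against −0.16 for 23 genes without it). The CCAAT box (CCAAT) was in 44% of the proteasome promoters and 34.6% of all promoters, and 7 of 19 tested genes with it had an estimate above 0 (median −0.17, against 0.017 for 20 genes without it). The nuclear respiratory factor site GCATGCGC was in 6% of the proteasome promoters and 3.05% of all. These are counts of letters in a window and show no binding.

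Around the subunits, 43 further genes of the pathway were listed, with 4 higher and 8 lower with siE7, where 18% and 16% of all tested genes were, and a median log2 fold change of −0.05. These counts were 7 and 6 without composition scaling, and 11 and 17 without siE7 replicate 1, where 28.9% and 29.5% of all tested genes were called. For the fit without composition scaling that share was not counted. The largest difference was in PAAF1, an assembly chaperone of the regulatory particle base, with 48.0, 41.5 and 41.5 CPM in siNC and 24.6, 19.2 and 20.0 CPM in siE7. Its log2 fold change was −1.04 ± 0.14 (edgeR adjusted p = 0.000258). The subunits with other names did not pass. ADRM1, the ubiquitin receptor that docks on PSMD2, had a log2 fold change of −0.05, SEM1, a small lid subunit, of 0.19, and POMP, which matures the core, of 0.09 (adjusted p = 0.784, 0.484 and 0.656). In the fit without siE7 replicate 1, ADRM1 was at −0.25 and passed (0.000222) and SEM1 was at 0.34 and did not (0.168). IPO9, which imports proteasomes into the nucleus, fell by 0.46 on the log2 scale (adjusted p = 0.00713).

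NFE2L1 itself was at 826, 834 and 873 CPM with siNC and at 1059, 850 and 834 CPM with siE7, which overlap (0.11 ± 0.12, edgeR adjusted p = 0.480, and −0.065 without siE7 replicate 1). The related NFE2L2 was at 18.3 to 19.5 CPM with siNC and 13.8 to 25.5 CPM with siE7 (0.20 ± 0.21, adjusted p = 0.499), and without siE7 replicate 1 it passed the test (0.37, 0.000807). Among the partners and regulators of these factors, the small MAF gene MAFG rose (0.70, adjusted p = 0.00130) and MAFF fell by 0.49 on the log2 scale (0.0164). SYVN1, a ligase that acts on NFE2L1 at the endoplasmic reticulum, rose (0.56, 0.0166, and 0.32 without siE7 replicate 1), and the related factor NFE2L3 fell by 0.83 (0.0140).

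The genes that bring substrates to the proteasome also went both ways. RAD23B, a shuttle receptor that carries ubiquitinated proteins, was at 222 to 251 CPM with siNC and at 155 to 184 CPM with siE7, without overlap (−0.52, edgeR adjusted p = 0.00513). ZFAND2A, a stress-inducible cofactor, rose (0.68, adjusted p = 0.0107). FAF2, which recruits the p97 segregase at membranes, fell by 0.61 (adjusted p = 0.00148), and the ubiquitin-activating enzymes UBA1 and UBA6 fell by 0.50 (0.0149) and 0.81 (0.0350). The call of UBA1 was lost without any 1 library other than siE7 replicate 1 (adjusted p = 0.0530 to 0.0653). Of the deubiquitinases and ligases at the proteasome, UBE3C had the smallest p and did not pass (−0.23, adjusted p = 0.131), but did without siE7 replicate 1 (−0.26, 0.000566). The ubiquitin gene UBB had a log2 fold change of 0.04, and of −0.18 (adjusted p = 0.00606) without siE7 replicate 1. IPO9, MAFF, SYVN1, NFE2L3, ZFAND2A, UBA6, UBB, PSMC4, PSMD7, PSMG2, PSME1 and PSME2 were named after their values were seen. For them no alternative is given except, for some, the fit without siE7 replicate 1. How far their calls hold elsewhere was not tested.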

How the data were processed

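RNA was measured in 6 libraries of SCC-9 cells, 3 per group, grouped by their labels. The counts of reads per gene were used as deposited by the authors, as whole numbers without normalization. The labels describe poly(A)-selected directional libraries and paired-end reads, and the submitters' processing notes name HISAT2, DESeq2 and GRCh38. The counting tool, and whether it used the strand, are not given in the sources used here. Columns were matched to samples by their names. Genes were filtered by filterByExpr (14661 of 25349 kept), scaled by TMM and compared by edgeR 4.0.16 (R 4.3.3), quasi-likelihood F-test with robust dispersions and Benjamini-Hochberg adjustment over all tested genes. A single-value check used the exact permutation test. CPM are TMM-scaled, and per-kb levels use the GENCODE v44 canonical transcript (25283 identifiers matched without their version). For log2 values per library 0.02 CPM was added. GC trends were removed by lowess (span 0.3). Tests were run on simulated counts with few changed genes, no GC trend and no library that stood apart. The GC trend and the divergent library of these data were thus not covered by that check.

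The counts of called genes, the core and regulatory particle medians and the values of MKI67, PSMD8 and the genes described in full were also computed in alternatives. These used DESeq2 1.42.0, other scalings (RLE, upper quartile, none), no low-count filter or a minimum of 10 counts per library. Others had a replicate block, the GC trend removed (also with the block), or 1 library left out. For the other named genes no alternative is given except the fit without siE7 replicate 1. Removal of the GC trend without siE7 replicate 1 was added after the data were seen. The proteasome genes, the pathway list and the motifs were chosen with earlier results of these data known. Genes described in full were those past adjusted p 0.05 and a log2 fold change beyond 1, the highest and lowest estimate of each class, the catalytic subunits, PSMB10, PSMD14, PSMD2, PSMD4, PSME3 and PSMF1. In the pathway list they were ADRM1, SEM1, POMP, NFE2L1, NFE2L2 and the smallest p of each group. Some results of the pathway list are not reported here. PSMD8, like other genes outside this rule, was named after its values were seen. Promoter and motif sequences come from RefSeq (GRCh38.p14). Pseudogene copies (10 rows, of which only PSMC1P1 had at least 10 counts in every library) held at most 0.102% of the counts on proteasome genes and their copies. Tables and figures were made in Python 3.11.15 with pandas 2.3.3, numpy 2.4.6 and matplotlib 3.10.9.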

Additional observations from a re-analysis of the deposited data

How the results depend on the processing

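The main counts were 3 proteasome genes higher and 4 lower with siE7, 1 DEG, a core particle median of −0.12, and 4 pathway genes higher and 8 lower. Removal of the GC trend gave 8 and 16 proteasome genes, a core median of −0.14, and 7 and 13 pathway genes, with or without the replicate block. Without siE7 replicate 1 as well (an alternative added after the data were seen) these were 12 and 21, −0.17, and 7 and 19. The share of all tested genes called was not counted for this fit, the replicate block or the other scalings, tools and filters. Those counts therefore do not set the proteasome or pathway genes apart. Without composition scaling, which moved the median of all genes from 0.08 to 0.25, they were 8 and 2, no DEG (0), 0.043, and 7 pathway genes higher. DESeq2 gave 7 lower proteasome genes and a core median of −0.18, RLE scaling 7 and −0.17. Upper-quartile scaling gave 0 DEGs and −0.10, the minimum of 10 counts also 0 DEGs and −0.10, and no filter on low counts 5 higher.

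With 1 library left out, the proteasome genes ranged from 0 to 14 higher and 1 to 20 lower, the DEGs from 0 to 1, the core median from −0.16 to −0.10, and the pathway genes from 2 to 11 higher and 3 to 17 lower. The counts of 14 and 20, and of 11 and 17, came without siE7 replicate 1, where 28.9% and 29.5% of all tested genes were called. No proteasome gene was higher (0) without siE7 replicate 2 or without any 1 of the siNC libraries. For the fits without a library other than siE7 replicate 1, the share of all tested genes called was not counted. Their counts therefore do not set the proteasome genes apart. PSMD2 was not a DEG (0) without siE7 replicate 2, siE7 replicate 3 or siNC replicate 1.

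The same replicate number did not pair the samples (correlations of −0.04, −0.02 and −0.05, and no library correlated best with its own number), and a replicate block gave 5 higher proteasome genes.

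Signs turned only for estimates that did not pass the test. PSMB1 was −0.012 by DESeq2 and −0.0033 with RLE scaling. Without composition scaling, PSMB7 was 0.040, PSMF1 0.11, PSME3IP1 0.0028 and ADRM1 0.11. With 1 library left out, PSMB6 ranged from −0.094 to 0.25, PSMD4 from −0.018 to 0.17, PSMD9 from −0.10 to 0.15 and NFE2L1 from −0.065 to 0.18, each lowest without siE7 replicate 1. PSMF1 ranged from −0.21 to 0.0031 and SEM1 from −0.014 to 0.34, turning without siE7 replicate 3, and ADRM1 from −0.25 to 0.032 and POMP from −0.0046 to 0.17, turning without siE7 replicate 2. With the GC trend removed and siE7 replicate 1 left out, PSMD9 was −0.022 and POMP −0.15. The cause was not tested. Of the values of single genes, 453 kept their direction and side of the threshold, 53 passed it newly, 38 no longer passed it and 16 turned.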
